A study of Mus musculus with 3 samples.

Results

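The nuclei described here are a group of endothelial nuclei of the mouse heart at embryonic day 9.5 that carried transcripts of Sema4d, Hs3st4, Kcnq1 and Col26a1. They were chosen by expression. A nucleus with at least 500 detected genes passed an endothelial gate when it had a unique molecular identifier (UMI, 1 captured RNA molecule) in at least 4 of 11 genes (Pecam1, Cdh5, Kdr, Tek, Tie1, Emcn, Flt1, Egfl7, Ptprb, Erg and Eng). It was a member when at least 2 of the 4 genes named above had a UMI and when this number was higher than in each of 7 other sets of 4 genes. Of 38893 barcodes in all, 7645 passed the gate and 635 were members, namely 135 in Ncx1-/-, 217 in Ncx1+/- and 283 in Ncx1+/+ hearts. They are called Sema4d-set nuclei, or members, below, and the remaining nuclei of the gate are called other gated nuclei.

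The hearts came from embryos with both copies of Ncx1 mutated (Ncx1-/-), from heterozygous embryos (Ncx1+/-) and from wild-type embryos (Ncx1+/+). Ncx1 is the alias of Slc8a1, whose protein carries calcium out of muscle cells in exchange for sodium. For each genotype 5 flash-frozen whole hearts were pooled before nuclei were isolated, and 1 library was made from the pool. Differences between genotypes therefore have no replicate check, no test between genotypes was possible, and intervals are exact 95% intervals that cover counting error only. The labels give neither the sex of the embryos nor the part of the gene that the mutation removes.

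The endocardium is the endothelial layer that lines the heart chambers. In the ventricle it faces the muscle across a matrix-rich jelly, and its secreted neuregulin and its Notch signals are known to act on the growth of muscle trabeculae. In the atrioventricular canal and outflow tract some endocardial cells leave the layer and form the cushions from which valves arise. Mouse embryos that lack the exchanger are known to have no regular heartbeat and thus little blood flow. The series title places the libraries in a study of blood flow, primary cilia and cushion formation, so the comparison asks how these endothelial nuclei differ when flow is missing.

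The tables held 12525, 12563 and 13805 barcodes with 52985283, 49022310 and 59898298 UMIs in Ncx1-/-, Ncx1+/- and Ncx1+/+. Slc8a1 stood at 1026 counts-per-million of UMIs (CPM) in Ncx1-/-, 6534 CPM in Ncx1+/- and 11823 CPM in Ncx1+/+ over all barcodes, which follows the genotype labels. Between libraries 40 to 57 barcodes per pair were shared, and 0 of them belonged to members. Members had median depths of 4982, 4962 and 5684 UMIs in Ncx1-/-, Ncx1+/- and Ncx1+/+, and other gated nuclei had 4378, 4510 and 5268 UMIs. The 10 cardiomyocyte markers summed to 25.6%, 23.6% and 19.9% of their level in cardiomyocyte-type nuclei in Ncx1-/-, Ncx1+/- and Ncx1+/+ members, against 38.7%, 26.3% and 23.8% in other gated nuclei. No doublets were removed from the members, and 21 of 135, 30 of 217 and 47 of 283 members lay within the top 8% of doublet scores of their libraries in Ncx1-/-, Ncx1+/- and Ncx1+/+. The 6 sex-linked genes measured also differed, with Xist at 1832 CPM in Ncx1-/- members, 987 CPM in Ncx1+/- and 789 CPM in Ncx1+/+ members, and with the Y-linked gene Uty at 78.7, 248 and 228 CPM in the same order. The part of muscle RNA, doublets and the sex of the pooled embryos in the differences below was not tested except where a value is given.

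Sema4d encodes a membrane-bound semaphorin, a signalling protein that binds plexin receptors, and lies on the minus strand of chr13:51685529-51793747 in the mouse build mm10. It had a UMI in 60 of 135 Ncx1-/- members (44.4%), 119 of 217 Ncx1+/- members (54.8%) and 164 of 283 Ncx1+/+ members (58%). Hs3st4 (plus strand of chr7:123982869-124398989), a sulphotransferase that acts on heparan sulphate chains, was detected in 60.7%, 53% and 54.8% of Ncx1-/-, Ncx1+/- and Ncx1+/+ members. Kcnq1 (plus strand of chr7:143106362-143427042) encodes the pore of a voltage-gated potassium channel, and Col26a1 (minus strand of chr5:136741759-136883209) encodes a secreted collagen. Col26a1 was the set gene detected most often in each library, in 69.6% of Ncx1-/-, 78.3% of Ncx1+/- and 83.4% of Ncx1+/+ members. Most members met the rule with the fewest genes it allows. Exactly 2 of the 4 genes were seen in 99 of 135 Ncx1-/-, 146 of 217 Ncx1+/- and 158 of 283 Ncx1+/+ members, and all 4 in 5, 11 and 23 nuclei of these libraries. Sema4d and Col26a1 were found together in 22.2% of Ncx1-/-, 39.6% of Ncx1+/- and 44.9% of Ncx1+/+ members.

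Because these genes defined the members, their levels are a description. Sema4d stood at 105 CPM in Ncx1-/-, 122 CPM in Ncx1+/- and 137 CPM in Ncx1+/+ members, against 9.57, 13.7 and 12.8 CPM in other gated nuclei of the same libraries. Hs3st4 stood at 436, 479 and 558 CPM in Ncx1-/-, Ncx1+/- and Ncx1+/+ members and at 70, 89.1 and 70.6 CPM in other gated nuclei. Col26a1 stood at 216, 288 and 294 CPM in members and at 39.9, 57.4 and 59.8 CPM in other gated nuclei of these libraries in the same order. None of the 4 set genes was past the 1.5-fold rule between genotypes. Kcnq1, at 124, 132 and 119 CPM in Ncx1-/-, Ncx1+/- and Ncx1+/+ members, had less contrast to muscle nuclei than Sema4d. It had a UMI in 14.4%, 11.1% and 13.6% of cardiomyocyte-type nuclei of Ncx1-/-, Ncx1+/- and Ncx1+/+, which is at or above its share of 12.6%, 10.3% and 10.3% in other gated nuclei. The results that follow were also computed with Kcnq1 left out of the set.

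The share of members among gated nuclei was 6.02% in Ncx1-/- (135 of 2244, exact binomial interval 5.07 to 7.08), 8.69% in Ncx1+/- (217 of 2497, 7.61 to 9.86) and 9.75% in Ncx1+/+ (283 of 2904, 8.69 to 10.9). The Ncx1-/- share lay below both others, and its interval did not overlap theirs. With every nucleus thinned to 2000 UMIs, and 93, 92 and 63 shallower gated nuclei of Ncx1-/-, Ncx1+/- and Ncx1+/+ left out, the shares were 3.39% in Ncx1-/- (2.59 to 4.36), 5.28% in Ncx1+/- (4.34 to 6.37) and 5.48% in Ncx1+/+ (4.58 to 6.5). At equal depth the Ncx1-/- share was again the lowest, while its interval touched that of Ncx1+/-. Without Kcnq1 in the set the shares were 3.25%, 5.57% and 6.34% in Ncx1-/-, Ncx1+/- and Ncx1+/+. Leaving out nuclei high in cardiomyocyte markers gave 7.04%, 9.06% and 10.1% in the same order, with no interval computed. Such nuclei made up 17%, 15.2% and 13.4% of members and 29.9%, 19% and 16.6% of other gated nuclei in Ncx1-/-, Ncx1+/- and Ncx1+/+. A nucleus counts as a member through its transcripts of the set genes, so fewer such nuclei and less of these transcripts per nucleus cannot be told apart. The other sets, against which members were scored, differed between libraries as well. Set 2 (Dkk2, Ano1, St6galnac5 and Pmepa1) held 0 nuclei in Ncx1-/-, 48 in Ncx1+/- and 101 in Ncx1+/+, whereas set 8 (Grin2c, Etv2, Kit and Mrc1) held 237, 82 and 70.

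**Figure D1:**
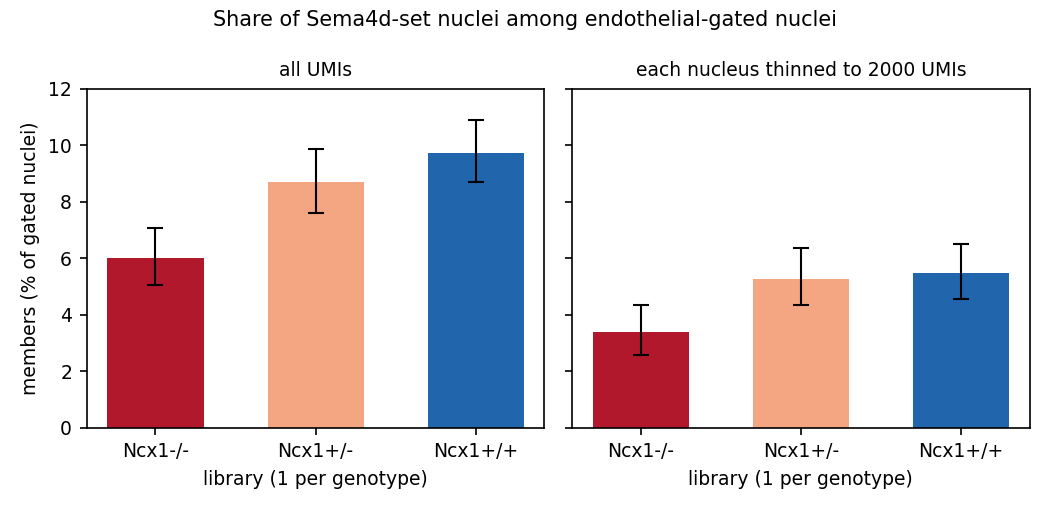
Share of Sema4d-set nuclei among the nuclei of the endothelial gate (vertical axis, percent) in the Ncx1-/-, Ncx1+/- and Ncx1+/+ libraries, with all UMIs (left) and after thinning each nucleus to 2000 UMIs (right). Bars are shares of 1 library each and error bars exact 95% binomial intervals. The Ncx1-/- bar is the lowest in both panels, at 6.02% and 3.39%.

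The label of these nuclei, ventricular endocardium, was compared with 10 genes of that tissue. Npr3, the clearance receptor of natriuretic peptides and a marker of endocardium, stood at 788 CPM in Ncx1-/-, 1074 CPM in Ncx1+/- and 1061 CPM in Ncx1+/+ members, against 507, 637 and 543 CPM in other gated nuclei. Dll4, a Notch ligand, stood at 49, 41.1 and 44.4 CPM in Ncx1-/-, Ncx1+/- and Ncx1+/+ members, against 28, 24.9 and 21 CPM in other gated nuclei. Both were at least 1.5-fold higher in members in each library. Set 8 lay within 1.5-fold of the members in Npr3, at 607, 807 and 908 CPM in Ncx1-/-, Ncx1+/- and Ncx1+/+. Dll4 was about as high in 2 of the other sets, at 48.2, 38.7 and 64.7 CPM in set 6 (Cyp26a1, Pcdh17, Pak7 and St8sia4) and at 35.6, 44 and 45.4 CPM in set 8 of Ncx1-/-, Ncx1+/- and Ncx1+/+. Adgrg6, an adhesion receptor of endocardium, was 2.13-, 1.41- and 1.5-fold higher in members of Ncx1-/-, Ncx1+/- and Ncx1+/+ and missed that rule in Ncx1+/-. The other 7 genes did not pass it either. Nrg1, the neuregulin gene, stood at 604, 1520 and 1695 CPM in Ncx1-/-, Ncx1+/- and Ncx1+/+ members and at 524, 1673 and 1958 CPM in other gated nuclei, and Nfatc1, an endocardial transcription factor, stood at 330, 360 and 353 CPM in members and 272, 402 and 455 CPM in other gated nuclei. Fgf12 and Irx6 were measured here, but had too few counts in members to be compared between genotypes. Thus 2 of the 10 genes passed, against 49 of 13579 genes (0.361%) over all. The chamber of the other gated nuclei is not known, so a gene that missed the rule does not decide the label. Most of the 10 genes did not set members apart, and Npr3 and Dll4 were also high in other sets. The nuclei are therefore named here by their set and not by a chamber.

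The members were also set against markers of other cell types. Of 6 neural crest and epithelial markers, Foxd3, Sox10, Epcam, Cdh1 and Wnt6 were at 0 counts in all members, and the list summed to at most 1.29 CPM in a library. Epicardial markers summed to 91.6 CPM in Ncx1-/-, 67.9 CPM in Ncx1+/- and 64.4 CPM in Ncx1+/+ members, with Bnc1 and Aldh1a2 at 0. Blood and macrophage markers summed to 36.1, 38.6 and 45.5 CPM and erythroid markers to 188, 359 and 284 CPM in Ncx1-/-, Ncx1+/- and Ncx1+/+ members. All 5 measured erythroid markers were lowest in Ncx1-/- members, and Hbb-bh1, an embryonic globin, was past the 1.5-fold rule at 36.1, 75.4 and 68.9 CPM in Ncx1-/-, Ncx1+/- and Ncx1+/+ members and kept that call in 11 of 11 settings. Hba-a2 was past it as higher in Ncx1+/-, at 9.03, 25.1 and 11.7 CPM in Ncx1-/-, Ncx1+/- and Ncx1+/+ members. In cardiomyocyte-type nuclei Hbb-bh1 stood at 37.2, 109 and 86.5 CPM in Ncx1-/-, Ncx1+/- and Ncx1+/+, and the part of erythroid RNA in the other differences was not tested. Cushion mesenchyme markers were mixed. Their sum was 376 CPM in Ncx1-/-, 665 CPM in Ncx1+/- and 850 CPM in Ncx1+/+ members, against 311, 547 and 710 CPM in other gated nuclei, and it came mostly from Cdh11 and Col3a1. These 2 of the 10 markers were higher in members than in other gated nuclei in each library, while Sox9, Pdgfra and Msx1 were lower. In set 4 (Slc24a4, Slc8a3, Epha7 and Il1r1) Cdh11 stood at 170, 430 and 663 CPM in Ncx1-/-, Ncx1+/- and Ncx1+/+. The members had 267, 425 and 558 CPM, so only in Ncx1-/- did they lie clearly above set 4.

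Set against other gated nuclei of the same library, 49 of 13579 genes (0.361%) were at least 1.5-fold higher in members in each of the 3 libraries with counting intervals above 1, and 44 genes (0.324%) were at least 1.5-fold lower in each. The members were picked on counts of these same nuclei, so these are descriptions and not tests. The gene with the most counts among those higher was Ebf1, a transcription factor known from B cells and fat cells, at 3066 CPM in Ncx1-/-, 4667 CPM in Ncx1+/- and 4781 CPM in Ncx1+/+ members, against 1687, 2603 and 2324 CPM in other gated nuclei. Nav3, a microtubule-binding protein of the neuron navigator family, stood at 1921, 4114 and 4596 CPM in Ncx1-/-, Ncx1+/- and Ncx1+/+ members and at 752, 1645 and 1511 CPM in other gated nuclei. It had a UMI in 86.7% of Ncx1-/-, 90.8% of Ncx1+/- and 93.6% of Ncx1+/+ members and in 59.6%, 65.8% and 67% of other gated nuclei. It was thus widespread in the gate, and among the other sets it stood at 1043, 1588 and 3167 CPM in set 8 and at 488, 2634 and 2232 CPM in set 3 (Fam155a, Ccdc141, Syndig1 and Adamts19) of Ncx1-/-, Ncx1+/- and Ncx1+/+.

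Both given markers outside the set were higher too. Col23a1, a transmembrane collagen, stood at 1408 CPM in Ncx1-/-, 1269 CPM in Ncx1+/- and 1501 CPM in Ncx1+/+ members, which was 2.32, 2.52 and 2.96 times its level in other gated nuclei. Emcn, the endothelial sialomucin endomucin and itself a gate gene, stood at 490, 611 and 644 CPM in Ncx1-/-, Ncx1+/- and Ncx1+/+ members. These values were 2.47, 1.92 and 1.98 times its level in other gated nuclei of the same libraries. Among the other sets, Emcn was highest in set 6 and set 8. It stood at 251, 541 and 453 CPM in set 6 of Ncx1-/-, Ncx1+/- and Ncx1+/+. In set 8 it stood at 272, 410 and 593 CPM in the same order. Both sets thus lay within 1.5-fold of the members in Ncx1+/- and Ncx1+/+, but not in Ncx1-/-. Nhs, a regulator of actin at cell contacts, was 2.47-, 1.91- and 2.19-fold higher in members of Ncx1-/-, Ncx1+/- and Ncx1+/+, and Slc45a4, a solute carrier, 2.69-, 2.96- and 2.37-fold higher. Sh2d3c, an adaptor protein of integrin signalling, was 2.14-, 1.93- and 2-fold higher in the same order. Signalling and scaffold genes in this group were Arhgef3, an exchange factor of RhoA, Ptpre, a tyrosine phosphatase, and Akap12, an anchor of protein kinase A. Their ratios of members to other gated nuclei lay between 1.74 and 2.36 in all 3 libraries. Epas1, a hypoxia-inducible factor of endothelium, stood at 61.9 CPM in Ncx1-/-, 73.8 CPM in Ncx1+/- and 84.4 CPM in Ncx1+/+ members and at 31.1, 40.5 and 39.6 CPM in other gated nuclei. Set 6 lay within 1.5-fold of the members in Epas1, at 54.6, 54.1 and 74 CPM in Ncx1-/-, Ncx1+/- and Ncx1+/+.

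Some of the largest ratios rested on few nuclei. Grin2a, a subunit of the NMDA glutamate receptor, stood at 54.2 CPM in Ncx1-/-, 40.2 CPM in Ncx1+/- and 11.7 CPM in Ncx1+/+ members, against 11.8, 2.55 and 1.98 CPM in other gated nuclei. Its counts lay in 13 Ncx1-/-, 8 Ncx1+/- and 6 Ncx1+/+ nuclei, and without Kcnq1 in the set the Ncx1+/+ ratio turned, at -0.18 on the log2 scale. Set 6 nuclei held Grin2a at 57.8 CPM in Ncx1-/- and 38.7 CPM in Ncx1+/-, close to the members, and at 0 CPM in Ncx1+/+. Slc7a14, of a family of amino acid carriers, stood at 20.6, 36 and 24.4 CPM in Ncx1-/-, Ncx1+/- and Ncx1+/+ members and at 5.01, 7.47 and 3.83 CPM in other gated nuclei, with counts in 14, 25 and 31 nuclei. The remaining ranked genes were Gbp8, Apold1, Stc1, Vstm4, Galnt18, Rai2 and Fam19a2, with ratios of 1.76 to 3.47. Among them Stc1, a secreted glycoprotein hormone, Apold1, an endothelial early response gene, and Vstm4 lost the call without the nuclei high in cardiomyocyte markers.

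Among genes lower in members than in other gated nuclei were several of signalling and adhesion. Bmper, a secreted BMP-binding protein, stood at 94.2 CPM in Ncx1-/-, 146 CPM in Ncx1+/- and 101 CPM in Ncx1+/+ members, against 194, 446 and 506 CPM in other gated nuclei. Msx1, a homeobox gene of cushion endocardium, stood at 19.4, 21 and 17.2 CPM in Ncx1-/-, Ncx1+/- and Ncx1+/+ members and at 40, 66.2 and 72.2 CPM in other gated nuclei. Unc5c, a netrin receptor, stood at 63.2, 52.8 and 105 CPM in members and at 162, 299 and 406 CPM in other gated nuclei of Ncx1-/-, Ncx1+/- and Ncx1+/+. In other gated nuclei all 3 genes were lowest in Ncx1-/-, and in members none of them stood apart between genotypes. The adhesion genes Ncam1 and Clstn2, the integrin subunit Itgb5 and the heparan sulphate enzyme Hs6st3 were lower as well, and so were Wdr35, a part of the transport machinery of cilia, Slc25a21, a mitochondrial carrier, and Klhl29. Wdr35 had only 2, 4 and 9 counts in Ncx1-/-, Ncx1+/- and Ncx1+/+ members.

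**Figure D2:**
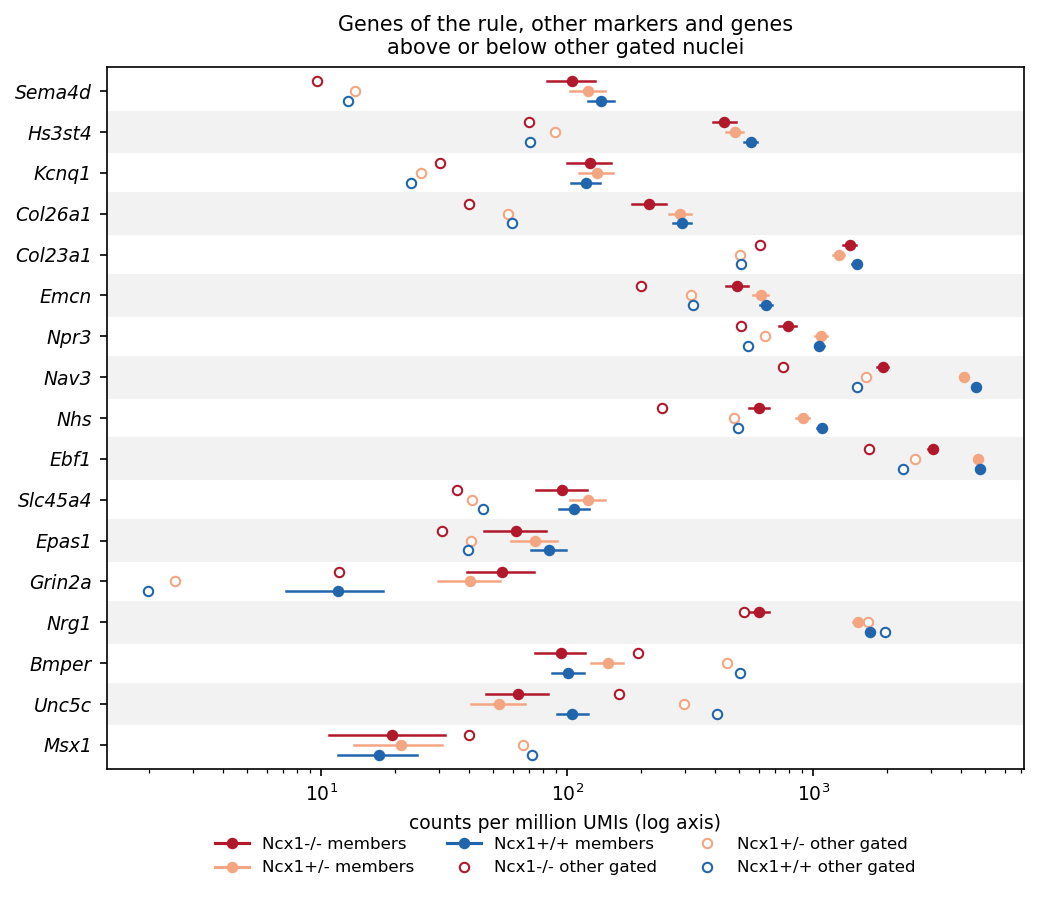
Level of rule genes, given markers and genes above or below other gated nuclei (rows) in members (filled, with exact 95% counting intervals) and other gated nuclei (open) of the Ncx1-/-, Ncx1+/- and Ncx1+/+ libraries, in CPM on a log axis. The filled points of Nav3 lie right of the open ones in each library, at 1921, 4114 and 4596 CPM against 752, 1645 and 1511 CPM, and those of Bmper, Unc5c and Msx1 lie left of them.

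The nuclei just inside and just outside the rule were set side by side. Emcn stood at 518, 437 and 652 CPM in Ncx1-/-, Ncx1+/- and Ncx1+/+ members with 3 or 4 set genes. It stood at 476 CPM in Ncx1-/-, 722 CPM in Ncx1+/- and 635 CPM in Ncx1+/+ members with 2 set genes. In gated nuclei with 2 set genes that tied with another set it stood at 212, 400 and 505 CPM, and in those with 1 set gene and no other set above 1 it stood at 254, 490 and 543 CPM. Gated nuclei with no set gene had 189, 275 and 264 CPM in Ncx1-/-, Ncx1+/- and Ncx1+/+. In each library Emcn was thus higher in members with 2 set genes than in these 3 kinds of nuclei outside the rule, whereas Ncx1+/- members with 3 or 4 lay below Ncx1+/- nuclei with 1. Nav3 stood at 1896, 3689 and 4086 CPM in Ncx1-/-, Ncx1+/- and Ncx1+/+ members with 2 set genes, at 1141, 2769 and 2456 CPM in tied nuclei and at 1197, 2472 and 2436 CPM in nuclei with 1. Of the other sets, set 8 was closest in Col23a1, at 953 CPM in Ncx1-/-, 1094 CPM in Ncx1+/- and 1233 CPM in Ncx1+/+.

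Between genotypes, a gene stood apart in a library when its CPM in members was at least 1.5-fold above, or below, both other libraries and the counting interval of each ratio excluded 1. Of 8258 genes with at least 50 counts over the members of all libraries, 284 were higher in Ncx1-/- (3.44%) and 195 were lower (2.36%). The counts per gene list below are to be read against these shares. Only 16 were higher (0.194%) and 22 lower (0.266%) in Ncx1+/-. Scaled with TMM factors the Ncx1-/- split was 204 higher and 280 lower, and with median-of-ratios factors 208 higher and 265 lower, against 284 and 195 on plain totals, so the balance between the directions changed with the scaling. In other gated nuclei of the same libraries, with many more UMIs behind each value, 1232 of 13423 genes (9.18%) were higher and 495 (3.69%) lower in Ncx1-/-. The median log2 ratio of Ncx1-/- to Ncx1+/+ over all measured genes was 0.03 in members and 0.11 in other gated nuclei.

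The largest listed group among the genes higher in Ncx1-/- members was that of hypoxia and glycolysis, the set of genes known to be switched on by hypoxia-inducible factors when oxygen is short. Of 39 listed genes 32 were measured, 26 of these were higher in Ncx1-/- members, 0 were lower, and the median log2 ratio to Ncx1+/+ was 1.34. The same list counted 23 higher under TMM factors, 22 of 29 after muscle RNA was subtracted and 26 of 30 without the nuclei high in cardiomyocyte markers, where the median was 1.45. Glucose transporters came first in the pathway. Slc2a1 stood at 324 CPM in Ncx1-/-, 160 CPM in Ncx1+/- and 112 CPM in Ncx1+/+ members, 2.9-fold above wild type (2.4 to 3.51). Slc2a3 stood at 178, 83 and 51.6 CPM in the same order. The enzymes past the rule are given in the order of the pathway. Hk2, hexokinase, stood at 548 CPM in Ncx1-/-, 237 CPM in Ncx1+/- and 219 CPM in Ncx1+/+ members. Gapdh stood at 541, 256 and 206 CPM and Ldha, lactate dehydrogenase, at 450, 234 and 167 CPM in Ncx1-/-, Ncx1+/- and Ncx1+/+ members. Pfkl, Pfkp, Aldoa, Tpi1, Pgk1, Pgam1, Eno1 and Pkm were higher too, by 2.28- to 3.65-fold over wild type. In each of the 26 genes the Ncx1-/- level was the highest, as the rule requires, and the Ncx1+/- level in CPM lay closer to Ncx1+/+. By ratio, the Ncx1+/- level of Ankrd37, given below, lay closer to Ncx1-/-.

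Genes that steer pyruvate and lactate were among those furthest above both other genotypes. Slc16a3, a lactate exporter, stood at 61.9 CPM in Ncx1-/-, 19.3 CPM in Ncx1+/- and 15 CPM in Ncx1+/+ members, and Pdk1, the kinase that keeps pyruvate out of mitochondria, at 225, 74.6 and 56.1 CPM in the same order, 4-fold above wild type (3.12 to 5.17). Vegfa, the angiogenic ligand made by oxygen-poor cells, stood at 145 CPM in Ncx1-/-, 52.8 CPM in Ncx1+/- and 33.3 CPM in Ncx1+/+ members. Egln1 and Egln3 encode oxygen sensors that mark hypoxia-inducible factors for decay. Egln3 stood at 58.1, 25.1 and 15.5 CPM in Ncx1-/-, Ncx1+/- and Ncx1+/+ members and Egln1 at 132, 87.2 and 66.6 CPM, though the call for Egln1 was lost under both other scalings, as were those for Kdm3a and Ero1l. The mitophagy genes Bnip3 and Bnip3l, the repressor Mxi1, the demethylase Kdm3a, the mitochondrial protein gene Higd1a and the oxidoreductase gene Ero1l completed the group. The factor subunits themselves did not stand apart. Hif1a stood at 305 CPM in Ncx1-/-, 329 CPM in Ncx1+/- and 327 CPM in Ncx1+/+ members, and Epas1 at 61.9, 73.8 and 84.4 CPM.

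Most of these genes are also expressed in muscle, whose RNA was present in the members. Summed over the 39 listed genes, members stood at 6292 CPM in Ncx1-/-, 3228 CPM in Ncx1+/- and 2631 CPM in Ncx1+/+. Cardiomyocyte-type nuclei stood at 9011, 6364 and 5707 CPM in the same order, so the list as a whole was higher there. Single genes went either way. P4ha1, a prolyl hydroxylase of collagen, stood at 449 CPM in Ncx1-/-, 172 CPM in Ncx1+/- and 132 CPM in Ncx1+/+ members, against 262, 182 and 180 CPM in cardiomyocyte-type nuclei. Egln3 stood at 16.4, 6 and 3.23 CPM in cardiomyocyte-type nuclei of Ncx1-/-, Ncx1+/- and Ncx1+/+. In Ncx1-/- both genes were thus higher in members than in muscle nuclei. For Pfkp the opposite held, at 165 CPM in Ncx1-/- members and 554 CPM in Ncx1-/- cardiomyocyte-type nuclei, and with 33.9 counts left after subtraction it fell under the minimum of 50. Other gated nuclei showed the same direction. Pdk1 stood there at 273 CPM in Ncx1-/-, 84.6 CPM in Ncx1+/- and 57.5 CPM in Ncx1+/+, and 35 of the 39 listed genes were higher in Ncx1-/-. These values share libraries with those of the members, and members and other gated nuclei are given side by side only. Oxidative phosphorylation genes had 0 of 31 past the rule in either direction, at a median log2 ratio of 0.46.

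**Figure D3:**
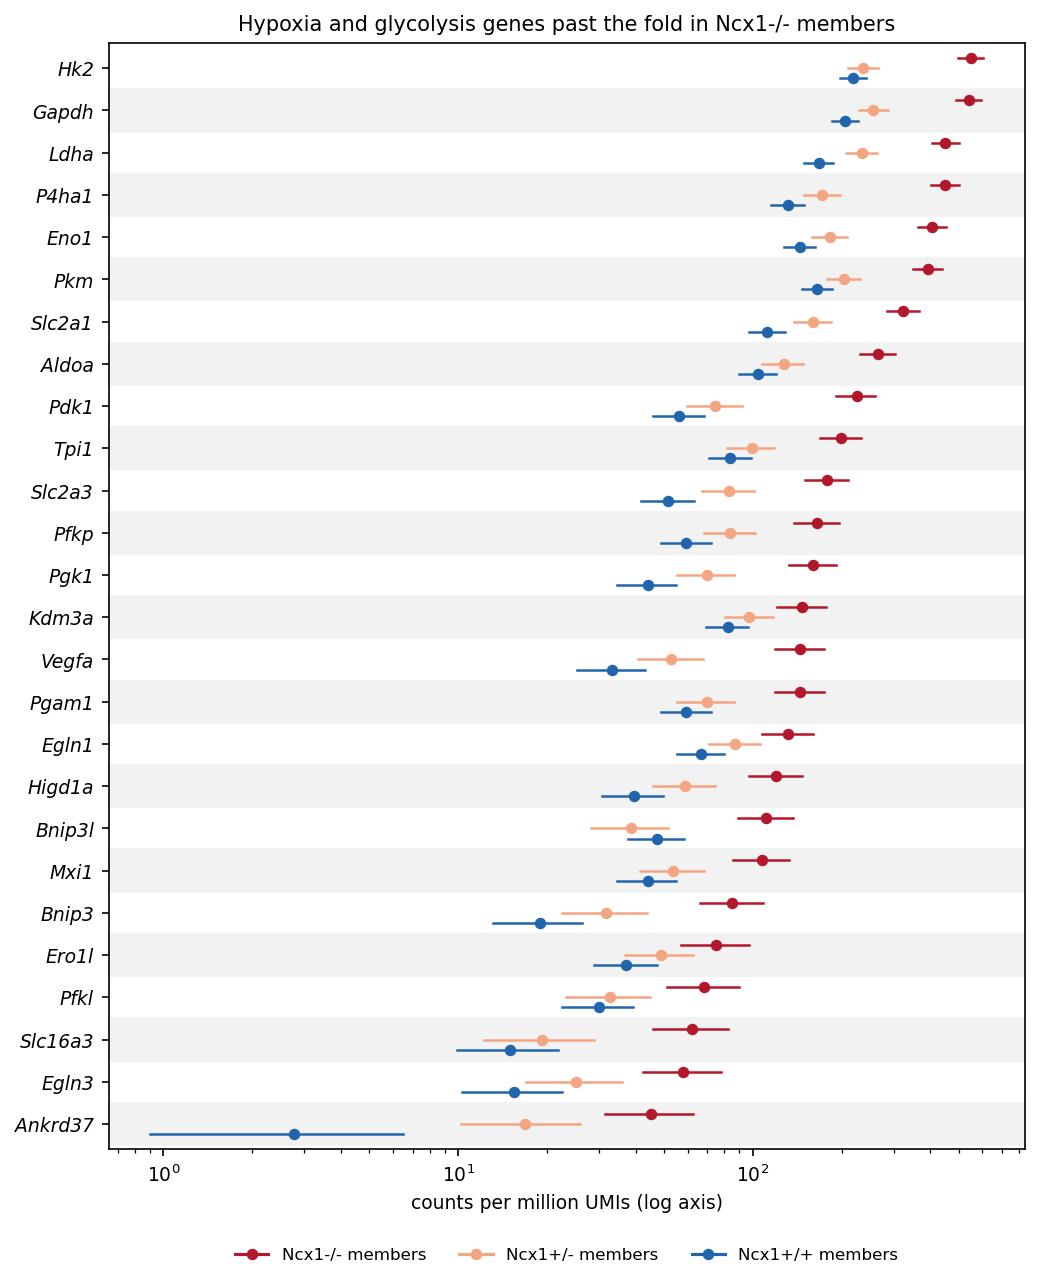
Level of the 26 hypoxia and glycolysis genes that stood apart in Ncx1-/- members (rows), in CPM on a log axis, in Ncx1-/-, Ncx1+/- and Ncx1+/+ members. Points are sums over the members of 1 library and lines exact 95% counting intervals. The Ncx1-/- point is the right-most in each row, for example 548 CPM against 237 and 219 CPM for Hk2.

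Hypoxia-inducible factors bind DNA at the core ACGTG, so the 250 bases before the start of these genes were searched for ACGTG on both strands (CACGT where it lies on the other strand), in RefSeq promoter sequence of the mouse build GRCm38.p6. Of the 26 genes higher in Ncx1-/- members, 23 had a promoter entry and 11 of these (47.8%) held the core, against 4477 of 27025 promoters of all genes (16.6%). Of the other measured genes of the list 3 of 5 (60%) held it. The share of all genes includes genes not measured in members. No share over the measured genes was computed, so the contrast is no test of enrichment. A match describes letters and shows no binding. Sequences are given for the 4 genes with the core that stood furthest above both other genotypes, with ACGTG or CACGT in capitals. They run 5′ to 3′ on the gene's strand and end just before the start, and they lie at chr11:120948817-120949066 (plus strand), chr8:45999851-46000100 (minus), chr7:138909507-138909756 (minus) and chr10:59323046-59323295 (plus). In Bnip3 the capitals are CACGTG, which reads the same on both strands.
Slc16a3: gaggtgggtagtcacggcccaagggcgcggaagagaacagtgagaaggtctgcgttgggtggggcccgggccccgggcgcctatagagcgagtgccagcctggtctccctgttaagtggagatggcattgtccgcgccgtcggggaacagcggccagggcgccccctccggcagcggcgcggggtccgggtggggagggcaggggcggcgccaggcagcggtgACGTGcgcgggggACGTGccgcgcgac
Ankrd37: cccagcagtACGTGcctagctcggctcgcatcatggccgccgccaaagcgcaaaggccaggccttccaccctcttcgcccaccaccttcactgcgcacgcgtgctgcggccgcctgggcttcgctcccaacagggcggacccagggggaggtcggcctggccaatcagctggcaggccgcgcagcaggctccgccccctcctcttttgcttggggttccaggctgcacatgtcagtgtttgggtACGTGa
Bnip3: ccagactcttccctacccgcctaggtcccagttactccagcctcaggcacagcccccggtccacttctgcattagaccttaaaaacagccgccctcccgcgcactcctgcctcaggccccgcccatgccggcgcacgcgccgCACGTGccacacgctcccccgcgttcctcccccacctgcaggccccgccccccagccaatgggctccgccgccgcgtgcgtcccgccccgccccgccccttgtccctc
P4ha1: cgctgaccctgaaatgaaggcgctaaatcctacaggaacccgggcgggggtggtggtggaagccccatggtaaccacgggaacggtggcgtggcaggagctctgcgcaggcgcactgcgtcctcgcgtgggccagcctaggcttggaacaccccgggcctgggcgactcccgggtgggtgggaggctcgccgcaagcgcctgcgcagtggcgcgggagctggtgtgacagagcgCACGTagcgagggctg
The core lay 14 bases before the start in Slc16a3, 6 in Ankrd37, 107 in Bnip3 and 16 in P4ha1 at its nearest. These genes stood at 61.9, 45.2, 85.2 and 449 CPM in Ncx1-/- members, against 19.3, 16.8, 31.8 and 172 CPM in Ncx1+/- and 15, 2.78, 18.9 and 132 CPM in Ncx1+/+ members. Ankrd37, a small ankyrin-repeat protein, rested on 35, 20 and 5 counts in Ncx1-/-, Ncx1+/- and Ncx1+/+ members and lost its call in 6 of 11 settings. Pdk1 and Vegfa, with 4- and 4.34-fold higher levels than in wild type, had no such letters in this window.

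Outside the list, the gene with the largest ratio to wild type among those ranked was Ier3, a gene of the immediate early response, at 51.6 CPM in Ncx1-/-, 18.4 CPM in Ncx1+/- and 4.44 CPM in Ncx1+/+ members (11.6-fold, 5.37 to 28.7). The ratio rested on few wild-type counts. Ier3 kept its call in 8 of 11 settings and lost it without Kcnq1 in the set, on thinned counts and at a count minimum of 100. Plod2, which hydroxylates collagen lysines, stood at 212, 71.2 and 54.4 CPM in the same order. Metabolic genes in this group were Ak4 and Nme4, mitochondrial nucleotide kinases at 47.7 and 49 CPM in Ncx1-/-, 15.9 and 17.6 CPM in Ncx1+/- and 17.2 and 16.7 CPM in Ncx1+/+ members. Triobp, an actin-binding protein, stood at 67.1, 23.5 and 23.9 CPM in Ncx1-/-, Ncx1+/- and Ncx1+/+ members. Dpp6, a partner of potassium channels, stood at 237 CPM in Ncx1-/-, 73.8 CPM in Ncx1+/- and 23.9 CPM in Ncx1+/+ members, but at 796, 211 and 83.6 CPM in cardiomyocyte-type nuclei, where it was higher than in members. After muscle RNA was subtracted Dpp6 kept 44.4, 31.1 and 8.97 CPM in Ncx1-/-, Ncx1+/- and Ncx1+/+ members, so it stayed highest in Ncx1-/- but was under 1.5-fold above Ncx1+/-. Hcfc1r1 stood at 31, 8.38 and 9.44 CPM and the glycogen regulator Ppp1r3c at 29.7, 8.38 and 10.6 CPM in Ncx1-/-, Ncx1+/- and Ncx1+/+ members, and both lost their calls in 6 of 11 settings. With 19 counts of Hcfc1r1 and 0 of Ppp1r3c left after subtraction, neither could be measured there.

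Arterial and vascular genes came next. Sox17, a transcription factor of arterial endothelium, stood at 82.6 CPM in Ncx1-/-, 30.2 CPM in Ncx1+/- and 14.4 CPM in Ncx1+/+ members, with counts in 43, 29 and 24 nuclei. Its relative Sox7 stood at 129, 75.4 and 57.7 CPM, and Gja4, a connexin of arteries, at 73.6, 31.8 and 25.5 CPM in Ncx1-/-, Ncx1+/- and Ncx1+/+ members. All 3 genes had at most 1.96 CPM in cardiomyocyte-type nuclei. Gja4 and Sox17 were 2 of 13 measured arterial and venous genes past the rule, both higher, at a list median of 0.49. Of 23 measured BMP and TGF-beta genes 3 were higher and 1 was lower. Tmem100, an endothelial target of BMP signalling, stood at 164 CPM in Ncx1-/-, 83.8 CPM in Ncx1+/- and 73.3 CPM in Ncx1+/+ members, and Acvrl1, a BMP receptor of endothelium, at 31, 15.1 and 10 CPM, with its call lost in 5 of 11 settings. Bmp5 was higher as well but had 394 CPM in Ncx1-/- cardiomyocyte-type nuclei and lost its call without the nuclei high in their markers. Tgfb2 was the lower gene, at 103, 226 and 168 CPM in Ncx1-/-, Ncx1+/- and Ncx1+/+ members, and turned to a log2 ratio of 0.20 without Kcnq1 in the set.

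Genes known to respond to shear stress did not move in a common direction. Of 19 measured, Gja4, Sox17 and Timp3 were higher and Wnt4 was lower, against 3.44% higher and 2.36% lower over all measured genes. The list median was 0.01. Klf2, the best known flow-induced transcription factor of endothelium, stood at 129 CPM in Ncx1-/-, 123 CPM in Ncx1+/- and 123 CPM in Ncx1+/+ members (ratio to wild type 1.05, 0.818 to 1.33), and Nos3, the endothelial nitric oxide synthase, at 135, 141 and 135 CPM (1, 0.791 to 1.27). Neither differed beyond counting error. Wnt4, a secreted Wnt ligand, stood at 14.2, 49.4 and 45 CPM in Ncx1-/-, Ncx1+/- and Ncx1+/+ members. It turned to a log2 ratio of 0.62 when members were chosen on thinned counts, and the call for Timp3 was lost under both other scalings.

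Among genes lower in Ncx1-/- members, several, such as Nav3, also stood higher in members than in other gated nuclei, whereas Nrg1 and Adgrg6 did not pass that rule. Nav3 stood at 1921 CPM in Ncx1-/-, 4114 CPM in Ncx1+/- and 4596 CPM in Ncx1+/+ members and was 2.39-fold lower than in wild type (2.26 to 2.53). Nrg1 stood at 604, 1520 and 1695 CPM in Ncx1-/-, Ncx1+/- and Ncx1+/+ members, 2.81-fold lower than in wild type (2.55 to 3.1), with counts in 77 of 135, 182 of 217 and 246 of 283 nuclei. Adgrg6 stood at 520, 827 and 962 CPM in Ncx1-/-, Ncx1+/- and Ncx1+/+ members, and its call was lost without the top doublet scores and without the nuclei high in cardiomyocyte markers, as were those of Adam19, Fbn1 and Hes1 below. Nhs stood at 601, 908 and 1084 CPM, Ebf1 at 3066, 4667 and 4781 CPM and Arhgef3 at 152, 277 and 294 CPM in Ncx1-/-, Ncx1+/- and Ncx1+/+ members. Nav3, Nhs, Ebf1 and Arhgef3 were lower in Ncx1-/- members and at the same time higher in members than in other gated nuclei of each library. The fall was not particular to members. Levels of Nav3, Nrg1 and Ebf1 in other gated nuclei, given above, were also lowest in Ncx1-/-. Of the 195 genes lower in Ncx1-/- members, 94 (48.2%) were also past the rule as lower in other gated nuclei, against 495 of 13423 genes (3.69%) measured there. Of the 8 measured ventricular endocardial genes Nrg1 and Adgrg6 were lower, 0 were higher, and the median log2 ratio was -0.56. Adam19, a protease known to process neuregulins, was lower as well, at 234 CPM in Ncx1-/-, 371 CPM in Ncx1+/- and 376 CPM in Ncx1+/+ members. Erbb4, the neuregulin receptor of muscle, stood at 1623, 1595 and 1515 CPM in members, but at 9768, 10573 and 10718 CPM in cardiomyocyte-type nuclei.

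Matrix genes were lower in part. Col3a1, a fibrillar collagen, stood at 36.1 CPM in Ncx1-/-, 168 CPM in Ncx1+/- and 213 CPM in Ncx1+/+ members, 5.89-fold lower than in wild type (4.01 to 8.98). Col5a2 stood at 163, 373 and 414 CPM and Cdh11, a cadherin of mesenchyme, at 267, 425 and 558 CPM in the same order. Fbn1, the gene of fibrillin, stood at 397 CPM in Ncx1-/-, 598 CPM in Ncx1+/- and 658 CPM in Ncx1+/+ members. Of 18 measured collagen and basement membrane genes Col4a5, Col5a1, Col5a2 and Lama4 were lower, Nid2 was higher, and the median log2 ratio was -0.51. Nid2 turned to -0.16 when members were chosen on thinned counts. Among 17 measured genes of endothelial-to-mesenchymal transition Cdh11 and Tgfb2 were lower and 0 were higher, at a median of 0.03. Sulf1, which removes sulphate from heparan sulphate, was the only measured gene of 17 in that pathway past the rule in Ncx1-/-, at 68.4, 135 and 135 CPM in Ncx1-/-, Ncx1+/- and Ncx1+/+ members.

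Of 14 measured axon guidance genes Slit2 and Epha4 were lower, 0 were higher, and the median log2 ratio was -0.22. Slit2, the ligand of Robo receptors, stood at 400 CPM in Ncx1-/-, 1203 CPM in Ncx1+/- and 1044 CPM in Ncx1+/+ members (2.61-fold lower than wild type, 2.31 to 2.95). Sema3a, a secreted semaphorin, stood at 330, 898 and 764 CPM and was the 1 gene past the rule among 14 measured semaphorins and plexins. Plxnb1, the receptor best known for Sema4d, had 6, 3 and 7 counts in Ncx1-/-, Ncx1+/- and Ncx1+/+ members and was not measured. Epha4, a receptor of ephrins, stood at 51.6, 101 and 114 CPM. The hedgehog genes Gli3, a transcription factor, and Boc, a co-receptor, were 2 of 7 measured and both lower, at a median of -0.47. Boc had 5, 24 and 33 counts in Ncx1-/-, Ncx1+/- and Ncx1+/+ members and lost its call in 5 of 11 settings, among them those that leave out doublets or nuclei high in cardiomyocyte markers. Gli3 stood at 219 CPM in Ncx1-/-, 359 CPM in Ncx1+/- and 425 CPM in Ncx1+/+ members. Cilia genes had 1 of 29 higher, Ift20, and 0 lower, at a median log2 ratio of -0.11. Hes1, a Notch target, was lower at 114, 173 and 187 CPM, Notch3 was higher at 96.8, 44.4 and 51.1 CPM, and the 14 other measured Notch genes did not stand apart. Cell cycle genes had 1 of 42 lower, Pcna, and 0 higher, at a median of -0.00, and Pcna lost its call in 5 of 11 settings. Single genes past the rule in other lists were Gata2, a transcription factor of blood and endothelium, lower at 12.9, 32.7 and 37.8 CPM, Cyp26b1, which breaks down retinoic acid, higher at 38.7, 9.22 and 15 CPM, and Rcan2, a calcineurin regulator, higher at 41.3, 15.9 and 18.3 CPM in Ncx1-/-, Ncx1+/- and Ncx1+/+ members. Gata2 lost its call in 4 and Rcan2 in 6 of 11 settings.

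The genes furthest below both other genotypes had few counts in the 135 Ncx1-/- nuclei. Ackr3, a scavenging receptor of the chemokine Cxcl12, had 0 counts in Ncx1-/- members, 38 in Ncx1+/- and 64 in Ncx1+/+, and with a floor of 3 counts over the members it was at least 8.23-fold lower than in Ncx1+/- and at least 9.18-fold lower than in Ncx1+/+. Kcnc2, a potassium channel gene, had 3, 59 and 93 counts in Ncx1-/-, Ncx1+/- and Ncx1+/+ members (13.3-fold lower than in wild type, 4.43 to 65.9), and those counts lay in 2, 17 and 25 nuclei. Dync1i1, a subunit of the dynein motor, had 3, 32 and 70 counts (10-fold lower, 3.3 to 49.9). Lsamp, a neural adhesion protein, had 7, 54 and 110 counts (6.76-fold lower, 3.17 to 17.2), and Plce1, a phospholipase, 9, 63 and 107 counts (5.12-fold lower, 2.6 to 11.5) in Ncx1-/-, Ncx1+/- and Ncx1+/+ members. Klhl29, Adamts5, a protease of the matrix proteoglycan versican, and Pid1 had 3, 3 and 1 counts in Ncx1-/- members, and each was measured on fewer than 100 counts over all members. Slc8a1 itself stood at 276, 1385 and 2323 CPM in Ncx1-/-, Ncx1+/- and Ncx1+/+ members and at 1274, 8784 and 16709 CPM in cardiomyocyte-type nuclei. Subtracting muscle RNA left 0 counts in members. The amount taken off was larger than the Slc8a1 counts in each library and negative values were set to 0. The 0 therefore does not show how much of the Slc8a1 RNA came from muscle, which was not tested.

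**Figure D4:**
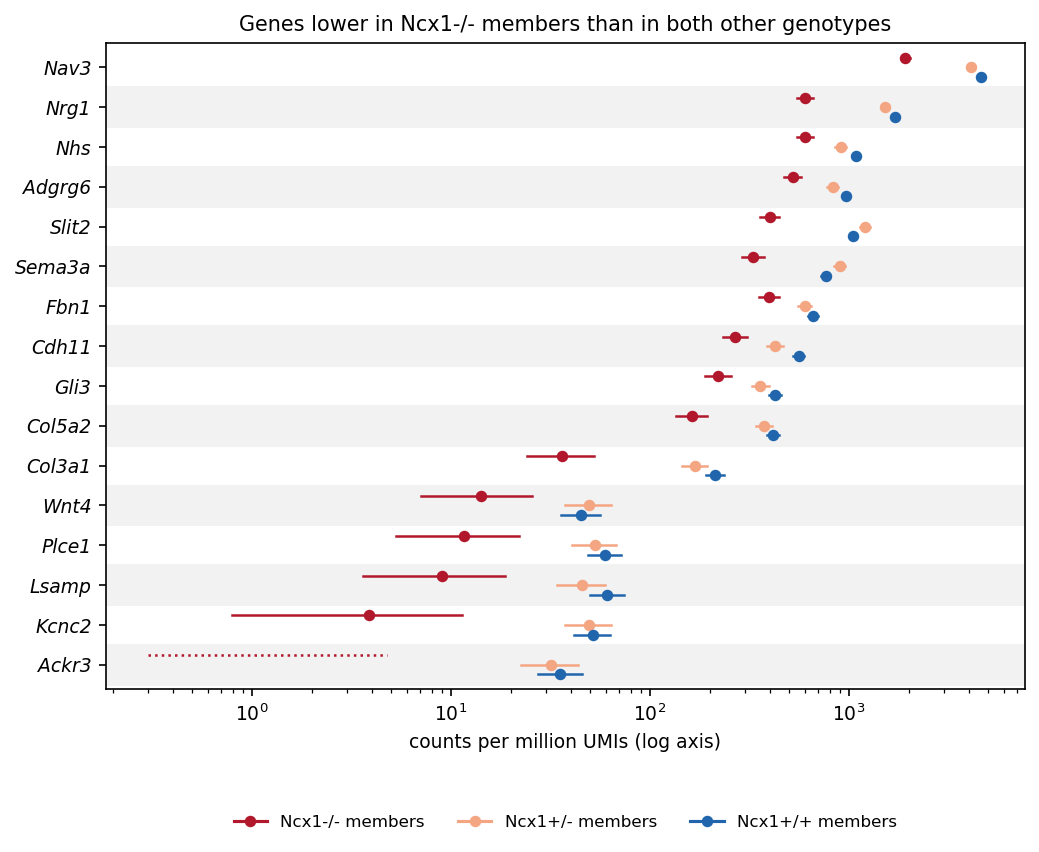
Level of 16 genes that stood apart as lower in Ncx1-/- members (rows), in CPM on a log axis, in Ncx1-/-, Ncx1+/- and Ncx1+/+ members. Points are sums over the members of 1 library, lines exact 95% counting intervals, and the dotted line of Ackr3 marks 0 counts in Ncx1-/- up to its upper limit. The Ncx1-/- point is the left-most in each row, as for Nrg1 at 604 CPM against 1520 and 1695 CPM.

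The 5 genes furthest above both other genotypes in Ncx1+/- were Glis3, Creg1, Oplah, Dsel and Pdgfrl. Glis3, a zinc-finger transcription factor, stood at 115 CPM in Ncx1+/- and 51.1 CPM in Ncx1+/+ members (2.25-fold) and at 27.1 CPM in Ncx1-/- members, and it kept its call in all 11 settings tried. The others had 28 to 48 counts in Ncx1+/- members. The 5 furthest below were Trabd2b, Cep41, Hs3st3b1, Tex264 and Nipsnap1, with 8 to 11 counts in Ncx1+/- members, and each lost its call in at least 2 settings.

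Features of the libraries moved with these results, and their part in them was not tested. Malat1, a nuclear RNA, stood at 45354 CPM in Ncx1-/-, 27136 CPM in Ncx1+/- and 25377 CPM in Ncx1+/+ members, and 4 of 32 measured ribosomal protein genes (Rpl13, Rpl18, Rpl32 and Rps19) were higher in Ncx1-/- members, at a list median of 0.80. Under both other scalings Rpl13, Rpl18 and Tsix lost their calls. Of the 10 cardiomyocyte markers Myh7 was higher, at 414, 186 and 165 CPM in Ncx1-/-, Ncx1+/- and Ncx1+/+ members. Both X-linked RNAs of inactivation, Xist and Tsix, were higher and the 4 Y-linked genes were lower in Ncx1-/- members. Nhs, Rai2, Col4a5 and Pgk1 lie on chromosome X, and for them genotype and the sexes pooled cannot be told apart in these libraries.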

How the data were processed

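Single-nucleus RNA was measured in 1 library for each genotype. The deposited files hold raw UMI counts per gene and barcode; per the labels nuclei were sorted for quality and run on 10x chemistry 3.1. The build mm10 and Cell Ranger 6.1.0 stand in the submitters' processing notes, while the file headers name cellranger 9.0.0. Gene positions came from GENCODE M21, which matched 27645 of 27998 gene IDs (98.7%).

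Counts were summed over the members of each library and divided by their summed UMIs (774933 in Ncx1-/-, 1193127 in Ncx1+/- and 1800867 in Ncx1+/+) to give CPM. Levels have exact Poisson intervals and ratios exact conditional binomial intervals, both 95%. They cover counting error only and not the clustering of counts in few nuclei. A gene was measured with at least 50 counts over all members and called at a 1.5-fold difference from both other genotypes with intervals excluding 1. Against other gated nuclei the rule had to hold in each of 3 libraries. With 1 library a group no p-value was computed. A gene with 0 counts was set to a floor of 3 counts over the members. Cardiomyocyte-type nuclei had at least 8 of 10 muscle markers and at most 1 gate gene.

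Named genes were the rule and gate genes, the 10 furthest above and below in Ncx1-/-, the 5 in Ncx1+/-, the 20 highest and 10 lowest against other gated nuclei, and called members of 38 lists. Npr3, Dll4, Nfatc1, Hif1a, Klf2, Nos3, Erbb4, Plxnb1, Prkcb and Chrm3 were also given, chosen after their values were seen. The members, the lists and the tests were chosen with earlier results of these data known. The alternatives changed the gene minimum, the set, mitochondrial and doublet filters (Scrublet in scanpy 1.11.5), depth, scaling (TMM from edgeR 4.0.16, or median of ratios), the count minimum and muscle RNA. Leaving out nuclei high in cardiomyocyte markers was added after seeing the data. Scripts were tested on simulated data and used Python 3.11.15, numpy 2.4.6, scipy 1.17.1, pandas 2.3.3 and matplotlib 3.10.9.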

Additional observations from a re-analysis of the deposited data

Results flagged for a closer look

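Prkcb and Chrm3 were the 2 genes past the 1.5-fold rule in opposite directions in Ncx1-/- members and in Ncx1-/- other gated nuclei. This difference was not tested. Further genes changed sides without passing the rule in other gated nuclei. Timp3, for example, was higher in Ncx1-/- members but stood at 46.1, 63.4 and 81.9 CPM in other gated nuclei of Ncx1-/-, Ncx1+/- and Ncx1+/+. Prkcb, a protein kinase C, stood at 117 CPM in Ncx1-/-, 72.9 CPM in Ncx1+/- and 77.2 CPM in Ncx1+/+ members (log2 ratio to wild type 0.61), with counts in 48, 53 and 64 nuclei, against 47.6, 79.2 and 87.3 CPM in other gated nuclei of Ncx1-/-, Ncx1+/- and Ncx1+/+. Chrm3, a muscarinic receptor, stood at 49, 11.7 and 23.9 CPM in Ncx1-/-, Ncx1+/- and Ncx1+/+ members (log2 ratio 1.04), against 4.13, 24.9 and 31.7 CPM in other gated nuclei. Its 38 counts in Ncx1-/- members lay in 3 nuclei, with 24 in 1 nucleus.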

How the results depend on the processing

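No paired analysis was possible because each genotype has 1 library. Of 129 calls of named genes, 51 held in each of the 11 settings tried. A minimum of 1000 genes, a limit of 5% mitochondrial UMIs and no count minimum kept 129, both other scalings 122, and thinning to 2000 UMIs 61. Shares in Ncx1-/-, Ncx1+/- and Ncx1+/+ were 3.25%, 5.57% and 6.34% without Kcnq1 and 3.39%, 5.28% and 5.48% thinned. Genes higher in Ncx1-/- numbered 176 on thinned selection, against 284. Genes higher in Ncx1+/- numbered 25 without Kcnq1, 27 without top doublet scores, 28 with no count minimum, 9 at a minimum of 100 and 37 with muscle RNA subtracted, against 16, and lower ones 44 with no minimum, 10 at 100 and 71 subtracted, against 22. Against other gated nuclei 32 were higher when thinned, against 49, and 88, 85 and 72 were lower without Kcnq1, without doublets and subtracted, against 44. Directions turned for Grin2a in Ncx1+/+ (-0.18, without Kcnq1), Tgfb2 (0.20, without Kcnq1), and Gata2 (0.08), Nid2 (-0.16) and Wnt4 (0.62) when thinned. The causes were not tested. Depth limits genes with few counts in the 135 Ncx1-/- members, where a count of 0 allows up to 3 counts.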
